A study of Mus musculus with 6 samples.

Results

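Immediate early genes are genes whose transcription starts within minutes of a growth factor or stress signal, without new protein synthesis. The 10 genes described here were chosen by name: Fos, Jun, Junb and Jund, which encode subunits of the AP-1 transcription factor, Egr1, Klf6 and Myc, which encode other transcription factors, and Ier2, Ier3 and Ier5, which encode small proteins named for this response. They are 10 of the 51912 genes to which the deposited transcripts could be matched, and 9 of them were among the 13231 genes with enough counts to test. The messages were followed through RAPIDASH, a way to purify ribosomes, in the mouse embryonic stem cell line E14, by sequencing of polyadenylated RNA. A group of 3 libraries came from the material that pelleted through a sucrose cushion, which holds ribosomes, and a group of 3 from what eluted when such pellets were passed over a resin charged with cysteine. All 6 libraries came from cells grown on gelatin with serum and leukemia inhibitory factor, given fresh medium 1 hour before harvest and 100 µg/mL cycloheximide for 3 minutes, and then detached with trypsin. No library from cells without fresh medium or without cycloheximide was analysed here, so the values below compare 2 purification steps and not an induced with a resting state.

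In most cells the immediate early messages are scarce at rest, rise briefly when serum or growth factors activate the ERK kinases and serum response factor, and decay within minutes, in part through AU-rich elements in the 3' untranslated region that recruit deadenylases. Inhibitors of protein synthesis such as cycloheximide are known to prolong these messages. In embryonic stem cells Myc, Junb and Egr1 also lie downstream of leukemia inhibitory factor and fibroblast growth factor signals.

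The pentamer ATTTA is the core of these elements, and it was counted on the sense strand of the annotated 3' untranslated region of each gene's main transcript. Stretches of 30 bases are shown for Klf6, which fell, for Junb and Jund, which rose, and for Fos and Ier3, where 2 pentamers lie within a few bases of each other. Ier2, which also rose, has no pentamer to show. The stretches run 5' to 3' with each ATTTA in capitals.
Fos: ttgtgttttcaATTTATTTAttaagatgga
Ier3: ctaattaatATTTAtgtATTTAtgtatatc
Klf6: ttgtataagctgtATTTAcaaatcgcagtg
Junb: aatatatttgtgtATTTAacagggagggga
Jund: ccgattccgccctATTTAtgtttctactcg
In Fos the pentamers overlap, and of the 10 main transcripts that of Fos alone holds the longer form TTATTTATT. The 3' untranslated regions held 7 pentamers in Klf6, 5 in Ier3, 4 in Fos and in Jun, 2 in Junb, Egr1 and Ier5, 1 in Jund and none in Ier2. For Myc, whose counts are spread over several transcripts, Myc-204 was used as the main transcript and held 1, while Myc-201 and Myc-205, which are identical in sequence and together took more of the counts, held 2. Per kb of 3' untranslated region the pentamers numbered 8.16 in Ier3, 4.91 in Fos, 4.12 in Junb, 3.24 in Jun and 2.90 in Myc-204. Klf6 followed with 2.25, Jund with 1.88, Egr1 with 1.64 and Ier5 with 0.93. Of 12088 tested coding genes with a 3' untranslated region, 64.1% held at least 1 pentamer and 23.6% at least 4, so its presence alone does not set these messages apart. A match is a description of the letters and not a measured binding site.

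The resin eluates held relatively more Jund, Junb and Ier2 and relatively less Klf6 than the cushion pellets, while Fos, Egr1, Myc, Ier3 and Ier5 did not pass the test and Jun could not be tested. Of the 9 tested members, 3 rose and 1 fell at an adjusted p under 0.05. Over all tested genes 24.5% were higher and 28.2% lower by the same rule, so calls are common in these libraries and a count of 4 in 9 is near that background. For 5 of the 9 members every eluate lay on one side of every pellet, as it did for 60.3% of all tested genes. When each library's trend in GC content and transcript length was removed, Jund alone of the 4 called members stayed called. In that fit 19.6% of all tested genes were higher and 16.4% lower. Below, levels are read counts scaled to library size (CPM), differences are on the log2 scale, eluate relative to pellet, with their standard error, and adjusted p values come from edgeR's quasi-likelihood test over all tested genes. CPM is a share of a library, so these values show relative and not absolute amounts, and in bulk RNA fewer cells with a message and less message per cell cannot be told apart.

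The libraries held 7.84e+06 to 1.16e+07 estimated read counts. Of the counts matched to a gene, the 10 genes took 0.0522% to 0.0768% in a pellet and 0.0780% to 0.0867% in an eluate. This sum mostly follows the abundant members and does not describe each of them. Ier2, Jund and Egr1 averaged 295, 230 and 131 CPM in the eluates, and Junb, the next, 68.7 CPM. Pellet 1 stood apart from the other pellets. On the first principal component of log CPM it scored -19.1, while pellet 2 scored -42.9, pellet 3 scored -45.3 and the eluates ranged from 30.5 to 41.8. Values without pellet 1 are given where they change a call. The labels name replicates without saying that they are separate cultures, and each p value below therefore reflects differences among these 6 libraries, which may be technical. All 9 stem cell markers fixed for the check of the label were detected, at a summed 9382 to 9704 CPM in the pellets and 11599.5 to 11961 CPM in the eluates. They did not move together. Dppa5a, Pou5f1, Esrrb and Utf1 were higher in every eluate than in any pellet, and the first of them are the most abundant. Sox2 and Zfp42 were lower in every eluate, while Nanog, Tdgf1 and Klf4 overlapped. Of 7 fibroblast markers, Lum and Postn were at 0 in every library and Thy1 alone passed 1 CPM on average, with summed levels of 10.02 to 12.8 CPM in the pellets and 15.6 to 21.1 CPM in the eluates. Markers of differentiating cells, 8 in all, summed to 24.8 to 27.0 CPM in the pellets and 26.6 to 30.6 CPM in the eluates, with Neurog2 at 0, and the 3 trophectoderm markers to 7.29 to 9.09 and 7.84 to 8.81 CPM, with Elf5 at 0. The part of these other cell types in the results was not tested.

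Among the members called higher, the largest differences were those of Jund and Junb, which belong to the Jun family. Jund, the family member that is most steadily expressed in many cell types, had values of 138, 103 and 125 CPM over pellets 1 to 3 and of 202, 229 and 260 CPM over eluates 1 to 3. Every eluate lay above every pellet, and the message rose by 0.91 ± 0.12 on the log2 scale, a 1.88-fold difference (230 ± 28.7 against 122 ± 17.7 CPM, SD, n = 3 each; adjusted p = 9.18e-05). Junb, an AP-1 subunit that responds to leukemia inhibitory factor, was at 55.7, 41.8 and 42.9 CPM in the pellets and at 73.4, 65.8 and 67.0 CPM in the eluates. The groups again did not overlap, and Junb rose by 0.56 ± 0.11 (68.7 ± 4.07 against 46.8 ± 7.75 CPM; adjusted p = 0.000408). Both calls held when any 1 library was left out, with adjusted p of at most 0.00134 for Jund and 0.0054 for Junb.

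Jun, the founding member of the family, could not be measured in these files. Its single listed transcript had 37 estimated counts in pellet 2, 40 in eluate 2 and 0 in each of the other 4 libraries. Libraries of both kinds are thus either at 0 or near 40 counts, a pattern that follows the replicate number and not the purification step. Counts on transcripts that could not be matched to the annotation are not included, so Jun is only listed at 0 there, and no fold is given.

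Fos, whose protein pairs with the Jun proteins, was close in level in both groups. It was at 8.86, 6.27 and 6.55 CPM in the pellets and at 9.15, 7.09 and 7.41 CPM in the eluates, from 49 to 105 counts a library. The groups overlapped, with library 1 the highest of each kind, and the difference was 0.13 ± 0.19 (adjusted p = 0.591). The 95% interval from limma voom ran from 0.831-fold to 1.46-fold, so differences within that range are not excluded.

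**Figure D1:**
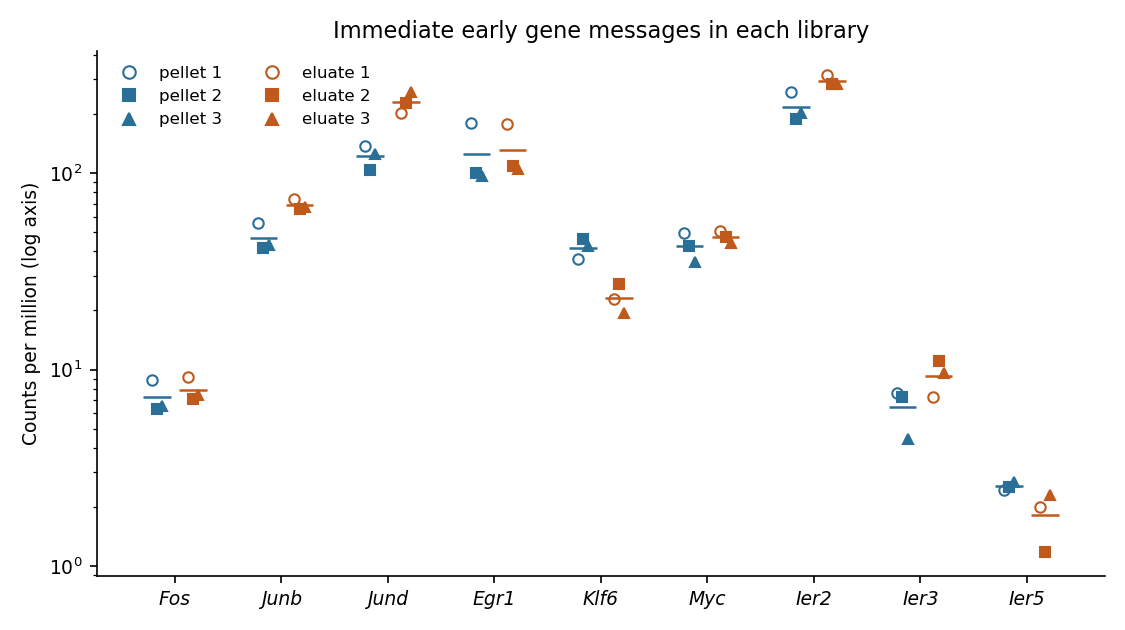
Level of the 9 tested immediate early genes in each library, in CPM on a log axis, with pellets in blue, eluates in orange and a line at each mean of 3 libraries. Jund, Junb and Ier2 lie higher in every eluate than in any pellet and Klf6 lower, while the Egr1 values of library 1 lie at 178 and 180 CPM in both kinds, above the other 4 libraries.

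Klf6, a zinc finger transcription factor of the Krüppel-like family, was the 1 member that fell. It was at 36.4, 45.9 and 42.8 CPM in the pellets and at 22.8, 27.3 and 19.5 CPM in the eluates, with no overlap. Its log2 fold change was -0.84 ± 0.13 (23.2 ± 3.90 against 41.7 ± 4.87 CPM, SD, n = 3 each; adjusted p = 5.36e-05), so an eluate held 0.557 times the relative amount of a pellet. The call held without any 1 library, with an adjusted p of at most 0.00117.

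Egr1, a zinc finger factor that follows ERK signalling closely, varied more between libraries of a kind than between kinds. Pellets 1 to 3 held 180, 100.3 and 96.7 CPM of it and eluates 1 to 3 held 178, 109 and 104 CPM. Both libraries with the number 1 held it well above the other 4, and whether libraries with the same number share a pellet is not stated in the labels. The eluate and pellet means were 131 ± 41.5 and 126 ± 46.8 CPM, with a log2 fold change of 0.06 ± 0.38 (adjusted p = 0.915). Its sign depended on the libraries used: it was -0.23 without eluate 1, 0.41 without pellet 1, -0.08 without pellet 2 and -0.09 without pellet 3, with none of these called. The pooled SD of log2 CPM within a kind was 0.467 for Egr1, against a median of 0.125 and a 95th percentile of 0.312 over 10238 tested genes with a mean of at least 5 CPM and no zero. By the same measure Ier3 was at 0.378, Fos at 0.237, Klf6 at 0.210, Jund at 0.198, Ier2 and Myc at 0.186 and Junb at 0.173, so each of these lay above the median gene. The spread falls with level, and against genes within 2-fold of its own level Egr1 was far above the 95th percentile (0.193 over 2502 genes) and Jund slightly above it (0.191), while Ier2 (0.189) and Ier3 (0.392) were slightly below theirs.

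**Figure D2:**
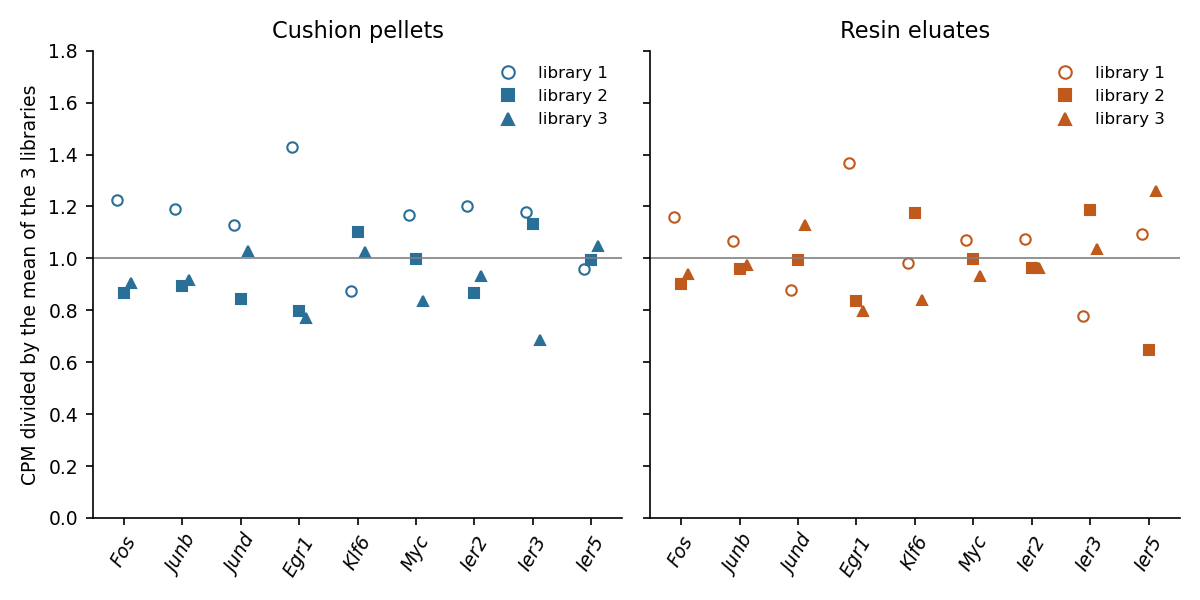
CPM of each tested member divided by the mean of the 3 libraries of its kind, for pellets on the left and eluates on the right, with symbols for the library number. Egr1 in library 1 stands farthest above the mean in both panels, with the other 2 libraries close together below it.

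Myc, a transcription factor that drives growth and self-renewal of these cells, was at 49.6, 42.4 and 35.4 CPM in the pellets and at 50.6, 47.3 and 44.0 CPM in the eluates. The groups overlapped, and the difference was 0.15 ± 0.11 (adjusted p = 0.259), with a 95% interval from 0.940-fold to 1.33-fold. Pellet 1 decided this outcome, since without it the log2 fold change was 0.27 and passed the test (adjusted p = 0.0116). Myc was the 1 member with several transcripts carrying counts. Myc-201 and Myc-205 are identical in sequence in the annotation, and the estimates moved between them, with all 251 counts of the pair on Myc-201 in pellet 1 and all 190 and 131 on Myc-205 in pellets 2 and 3. Together they held 45.2% to 59.0% of Myc counts in the pellets and 44.2% to 62.4% in the eluates. Myc-204, which has a shorter 3' untranslated region, held 14.1%, 24.5% and 16.2% of Myc counts over pellets 1 to 3 and 22.3%, 19.8% and 35.8% of them over eluates 1 to 3. These shares overlapped between the groups, and they rest on estimates for transcripts that share 95.2% of the 31-base subsequences of Myc-204.

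Among the IER genes, Ier2 rose, while Ier3 and Ier5 did not pass. Ier2, which encodes a nuclear protein, was the most abundant member, at 260, 188 and 201 CPM in the pellets and at 317, 284 and 285 CPM in the eluates. All eluates lay above all pellets, and Ier2 rose by 0.45 ± 0.11 (295 ± 18.7 against 216 ± 38.3 CPM; adjusted p = 0.00584). Its adjusted p was at most 0.0267 when any 1 library was left out, but 0.099 in a limma test of log2(TPM + 1), where the difference was 0.30. The median difference over all tested genes was -0.056 in that limma test and 0.0035 in the main fit. Ier3, which encodes a protein that modulates cell survival, was at 7.58, 7.29 and 4.41 CPM in the pellets and at 7.23, 11.0 and 9.61 CPM in the eluates. Eluate 1 lay within the pellets, and the difference of 0.51 ± 0.22 just missed the threshold (adjusted p = 0.0564). The call of Ier3 turned on single libraries and settings, with an adjusted p of 0.0106 without pellet 1, 0.0292 without eluate 1 and 0.02 with no count filter. Ier5, linked to heat shock factor regulation, was near the limit of what could be tested, with 13 to 25 counts a library. It was at 2.45, 2.53 and 2.67 CPM in the pellets and at 2.00, 1.18 and 2.30 CPM in the eluates. The groups did not overlap, yet the difference of -0.48 ± 0.31 did not pass (adjusted p = 0.203), and its 95% interval ran from 0.439-fold to 1.09-fold.

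Per transcript length, the members spanned a wide range. In TPM, a level scaled to transcript length, the pellets held Ier2 at 188 ± 41.1, Jund at 102 ± 15.9, Junb at 34.6 ± 6.98, Egr1 at 31.5 ± 13.8, Myc at 22.9 ± 4.85, Klf6 at 11.3 ± 0.293, Ier3 at 7.16 ± 2.20, Fos at 3.99 ± 1.08 and Ier5 at 0.950 ± 0.042 TPM. In this order Junb and Egr1, Egr1 and Myc, and Ier3 and Fos had overlapping values. The eluates held Ier2 at 228 ± 15.8, Jund at 166 ± 17.8, Junb at 44.7 ± 3.01, Egr1 at 29.6 ± 9.79, Myc at 23.8 ± 1.43, Ier3 at 9.57 ± 1.87, Klf6 at 6.17 ± 0.934, Fos at 4.04 ± 0.614 and Ier5 at 0.640 ± 0.205 TPM. Klf6 and Ier3 thus changed places: Klf6 lay above Ier3 in every pellet and below it in every eluate. In the eluates only Egr1 and Myc overlapped among neighbours in the order. In both kinds of library Ier2, Jund, Junb, Egr1 and Myc were the 5 highest, and Fos was above Ier5 alone among the tested members.

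The members that rose are the most GC-rich of the set and the member that fell is the most AT-rich. Jund has a GC content of 67.1%, above 99.7% of tested genes, Junb 62.6% and Ier2 60.9%, while Klf6 has 42.4%, above 10.6% of tested genes. Egr1 has 57.3%, Ier3 54.4%, Myc-204 53.5%, Ier5 52.3% and Fos 51.9%. Across the 9 tested members Spearman's rho between GC content and log2 fold change was 0.83. It was -0.82 with the length of the 3' untranslated region and -0.77 with transcript length. With the number of ATTTA pentamers it was -0.44 and with coding length -0.13. These values describe 9 genes that share the same 6 libraries. The 3' untranslated region is 3111 nt in Klf6, 485 nt in Junb, 533 nt in Jund and 755 nt in Ier2. With each library's trend in GC content and length removed from the fold changes, rho was 0.27 with GC content and -0.30 with the length of the 3' untranslated region. For transcript length, number of pentamers and coding length it was then -0.32, 0.34 and 0. The order of the members by GC content or by 3' untranslated region is the same when Myc is represented by Myc-201, with 53.3% and 442 nt. Among all tested genes the median log2 fold change went from -0.94 in the tenth of genes with the lowest GC content to 0.49 in the tenth with the highest, in which Jund, Junb and Ier2 lie. Jund was 0.43 above the median of that group, Junb 0.07 above it and Ier2 0.04 below it, and Klf6 was 0.28 below the median of its own group, at -0.57.

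**Figure D3:**
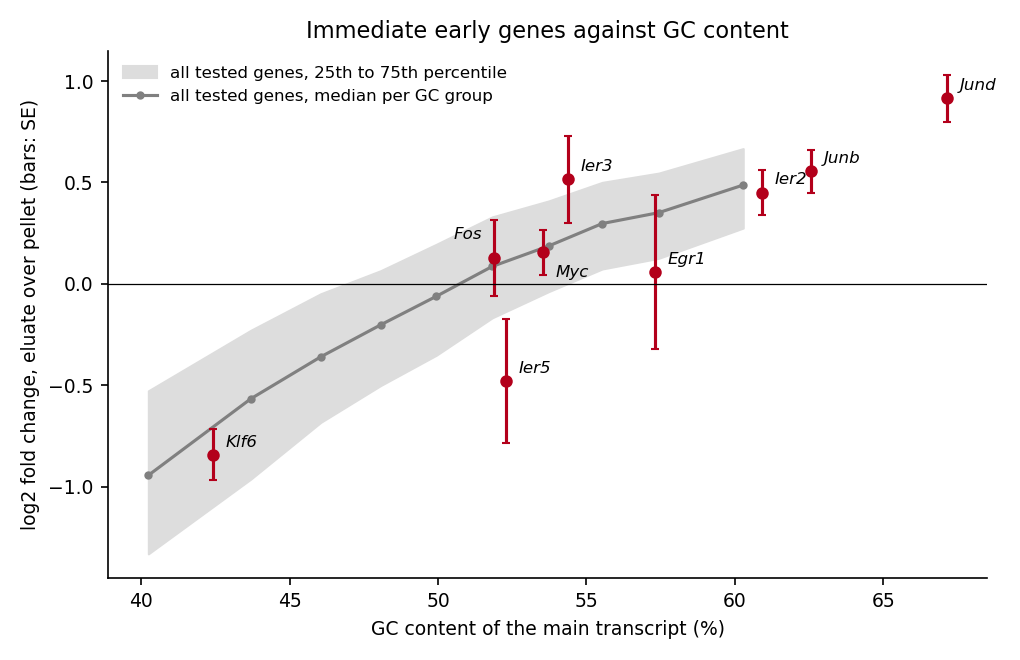
Log2 fold change of eluate over pellet against GC content of the main transcript, with the 9 tested members as red points with standard errors. The grey line and band give the median and the 25th to 75th percentile of all tested genes in 10 equal groups by GC content. The band ends at the median GC content of the top group, 60.3%, so Ier2, Junb and Jund lie to its right. Jund lies above the 75th percentile of that group (0.67), Ier5 below the band, and the other members in or near its range.

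When the smooth trend of each library in GC content and transcript length was removed, the differences of the 4 called members became smaller. Of the 9 members, 1 was then called, against 19.6% of all tested genes called higher and 16.4% called lower in that fit. Jund stayed higher at 0.25 ± 0.065 (adjusted p = 0.00377). Junb was at -0.0047 ± 0.076, Ier2 at -0.13 ± 0.064 (adjusted p = 0.128) and Klf6 at -0.086 ± 0.094 (adjusted p = 0.515), none of them called. Ier3 was at 0.10, Fos at 0.02, Egr1 at -0.09, Myc at -0.10 and Ier5 at -0.52, also not called. The median of the 9 turned from 0.15 to -0.086. Few genes are as GC-rich as Jund, so the fitted trend rests on few genes at its GC content. With the GC trend alone removed, Jund was again the 1 member called, at 0.26 (adjusted p = 0.00261), against 22.1% of all tested genes higher and 18.7% lower there. The cause of the trend was not tested.

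**Figure D4:**
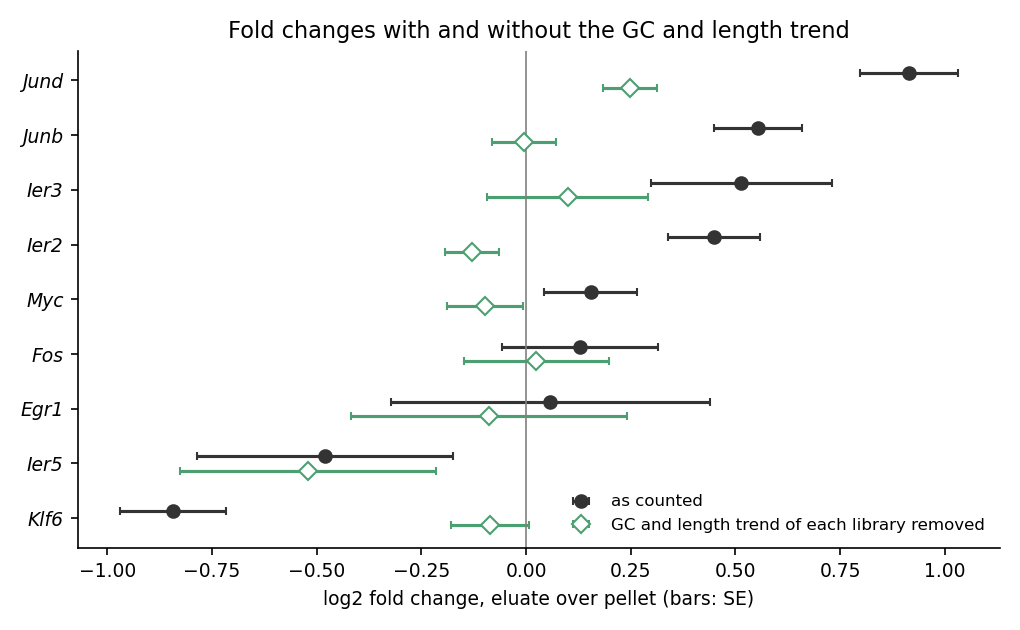
Log2 fold change of eluate over pellet with standard error for each tested member, as counted (black circles) and with each library's trend in GC content and length removed (green diamonds). Jund moves from 0.91 to 0.25 and Klf6 from -0.84 to -0.086, while Ier5 stays near -0.5 with a wide error.

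Most of the genes have few exons. Jun, Junb, Jund, Ier2 and Ier5 are annotated with a single exon, as are 332 (2.72%) of the tested coding genes. Egr1, Ier3 and Myc-204 have 2 exons, and Fos and Klf6 have 4. Of the 332 single-exon genes 99 (29.8%) were higher and 47 (14.2%) lower in the eluates, beside 24.5% and 28.2% of all tested genes. Junb, Jund and Ier2, the members that rose, are all on chromosome 8. Whether exon number or chromosome goes with the rise was not tested. The coding sequences are short, from 483 nt in Ier3 to 1602 nt in Egr1.

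The authors' deposited table has 4892 rows and holds only the same 4 members, each at an adjusted p under 0.05 (Wald test). Its log2 fold changes are 0.79 for Jund, 0.47 for Junb, 0.38 for Ier2 and -0.79 for Klf6, and its mean normalized counts for them are 1673, 552, 2451 and 311. These fold changes are smaller in size than those of the main fit. With an effective-length offset the edgeR fit gave 0.80, 0.46, 0.38 and -0.79 for the same genes in that order. What made the sizes differ was not tested.

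Other primary response genes included more that rose than fell. Of 53 listed, 46 were tested, 14 rose, Klf9 fell and 31 did not pass, with a median log2 fold change of 0.20 against 0.0035 over all tested genes. The 14 are 30.4% of those tested and the 1 is 2.17%, beside the 24.5% and 28.2% of all genes. Klf2, a Krüppel-like factor of the pluripotency network, rose by 0.72 ± 0.082 (436 ± 17.2 against 266 ± 34.7 CPM; adjusted p = 5.14e-06). Klf9, a factor induced by glucocorticoids in many tissues, changed by -0.88 ± 0.084 (53.3 ± 2.43 against 98.4 ± 8.84 CPM; adjusted p = 7.03e-07). Mcl1, an anti-apoptotic protein with a short-lived message, had the highest level of the list and a difference of -0.0018 ± 0.06 (611 ± 11.1 against 611 ± 10.7 CPM; adjusted p = 0.982). The median GC content of the list was 54.7% against 50.9% over all tested genes. With the trend removed the counts were 9 higher and 5 lower, beside 19.6% and 16.4% of all tested genes in that fit. The median was then 0.09, and Klf2 and Klf9 stayed called at 0.19 and -0.49. Fosb, Fosl1, Egr2, Egr3, Nr4a2, Nr4a3 and Dusp2 had too few counts to test.

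The kinases and factors that switch these genes on went both ways. Of 28 genes, all tested, 10 rose and 10 fell, 35.7% each, beside 24.5% higher and 28.2% lower over all tested genes, with a median of -0.09. Hras, a small GTPase at the head of the ERK cascade, rose by 0.55 ± 0.067 (176 ± 8.28 against 120 ± 0.699 CPM; adjusted p = 6.97e-06). Rps6ka3, the ERK-activated kinase RSK2, changed by -0.86 ± 0.11 (16.4 ± 0.461 against 29.9 ± 2.93 CPM; adjusted p = 1.41e-05). With the trend removed 13 genes were higher and 2 lower, beside 19.6% and 16.4% of all tested genes in that fit. The median turned to 0.17, and Hras and Rps6ka3 were at -0.08 and -0.03 and no longer called.

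Partners of the AP-1, Myc and Egr proteins were also mixed. Of 19 genes, 7 (36.8%) rose and 4 (21.1%) fell, beside 24.5% and 28.2% over all tested genes, with a median of 0.20. Mlx, a partner of the Mondo factors, rose by 0.52 ± 0.08 (63.3 ± 1.13 against 44.0 ± 1.77 CPM; adjusted p = 5.42e-05). Mga, a very large Max-binding repressor whose transcript has 11982 nt, changed by -1.60 ± 0.12 (36.6 ± 2.61 against 111 ± 20.1 CPM; adjusted p = 9.15e-07). Mycn, the Myc paralog, was the most abundant of the list, above Myc itself, at 152 ± 9.20 against 142 ± 10.9 CPM, and its difference of 0.11 ± 0.076 did not pass (adjusted p = 0.247). With the trend removed 5 were higher and 2 lower, beside 19.6% and 16.4% of all tested genes in that fit. The median was then 0.063, with Mlx at 0.56 and Mga at -0.44, both called.

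Factors that bind AU-rich elements or degrade such messages also went both ways. Of 20 genes 4 (20%) rose and 10 (50%) fell, beside 24.5% and 28.2% over all tested genes, with a median of -0.17 and a median GC content of 48.6%. Pcbp1, a poly(C)-binding protein, rose by 0.49 ± 0.073 (728 ± 37.2 against 518 ± 44.2 CPM; adjusted p = 3.81e-05). Xrn1, the cytoplasmic 5' to 3' exonuclease, changed by -1.52 ± 0.11 (15.0 ± 1.67 against 43.1 ± 3.77 CPM; adjusted p = 1.19e-07). Ybx1, an abundant RNA-binding protein, fell by 0.21 (2342 ± 46.2 against 2700 ± 283 CPM; adjusted p = 0.0295). With the trend removed 6 were higher and 5 lower, beside 19.6% and 16.4% of all tested genes in that fit, and the median turned to 0.10. Xrn1 at -0.38 and Ybx1 at -0.41 were then called and Pcbp1, at 0.07, was not. Zfp36, Zfp36l1 and Zfp36l2 are in this list and among the other primary response genes, and Klf4 is both a primary response gene and a stem cell marker.

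**Figure D5:**
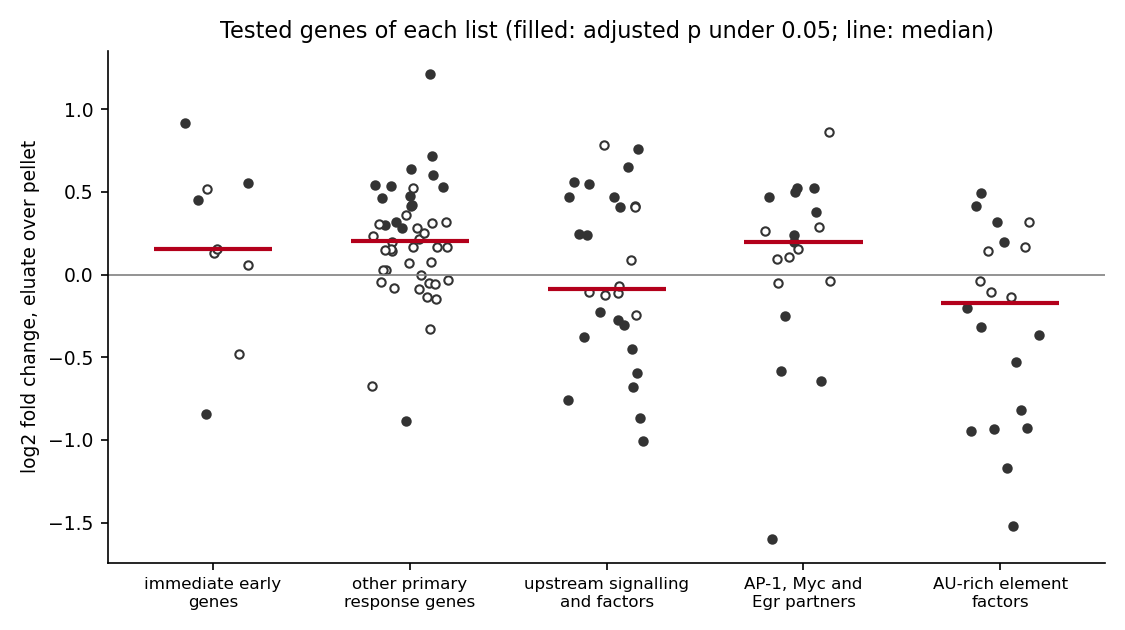
Log2 fold change of eluate over pellet for every tested gene of the 5 lists, with filled points for an adjusted p under 0.05 and a red line at each median. The medians lie at 0.15 for the immediate early genes, 0.20 for the other primary response genes, -0.09 for the upstream genes, 0.20 for the partners and -0.17 for the AU-rich element factors.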

How the data were processed

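Groups were taken from the sample titles. The submitters' processing notes name genome build GRCm39 and the tools Salmon 1.10.3, STAR 2.7.11b, DESeq2 1.44.0 and cutadapt 4.7, without saying what each did. Their annotation release is not given here. Per the file headers, the deposited library files are Salmon output with an estimated count, TPM and effective length for each transcript. The authors' deposited comparison table has, by its headers, a mean normalized count (a signal), a log2 fold change, a Wald score and a p-value with its adjusted value.

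Identifiers of 76858 of 84226 transcripts were found in GENCODE mouse release 21 (another build, so no coordinates are printed), and 7368 holding 1.63% to 2.35% of counts were not used. Estimated counts were summed per gene, rounded and tested with edgeR 4.0.16 in R 4.3.3 (quasi-likelihood, TMM, default filter, Benjamini-Hochberg adjustment, 0.05). SE is the absolute change over the square root of F. Trends were splines with 5 degrees of freedom in GC and log length of each gene's most abundant transcript. Intervals came from limma 3.58.1, and DESeq2 1.42.0 served as an alternative. Tested on data simulated for this comparison (13034 genes), the edgeR step recovered 58% of genes changed 1.5-fold and 84% changed 2-fold, with 15 of 179 calls (8.4%) false. The simulation changed a small part of the genes and held no trend in GC content or length. Its rates therefore need not hold for the libraries themselves. All 10 members are named, and in each other list the most abundant gene and the genes with the smallest p in each direction, except 1 gene that is not reported here. Members and lists were chosen with earlier results of these data known, and Klf9 and other single names follow that rule. Plots used Python 3.11.15 and matplotlib 3.10.9.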

Additional observations from a re-analysis of the deposited data

How the results depend on the processing

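The members called in the main analysis, Jund, Junb, Ier2 and Klf6, kept their calls with DESeq2 size factors, library totals, other count filters, DESeq2, limma voom, an effective-length offset, the unmatched transcripts added, no mitochondrially encoded genes, and any 1 library left out. Removing each library's trend in GC and length left 1 member higher and 0 lower, as did removing the GC trend alone and the replicate block with both trends removed. Members that changed sign with both trends removed were Junb at -0.0047, Egr1 at -0.089, Ier2 at -0.13 and Myc at -0.098. With GC alone removed they were Egr1 at -0.26, Ier2 at -0.016 and Myc at -0.0047. With the replicate block and both trends removed they were Junb at -0.0028, Egr1 at -0.091, Ier2 at -0.13 and Myc at -0.092. Egr1 was at -0.055 with TPM. Leaving out 1 library moved Egr1 between -0.23 and 0.41, and below 0 without eluate 1, pellet 2 (-0.078) or pellet 3 (-0.095). Without 1 library, 3 to 5 members were higher (5 without pellet 1, with Ier3 and Myc), 1 was lower and 5844 to 7773 genes were called. Requiring a log2 change of at least 0.5 left 4228 of the 6977 calls and dropped Ier2. With TPM, 1912 genes were higher and 3548 lower, against 3241 and 3736.

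The labels number the libraries 1 to 3 in each kind. Deviations from the group means correlated between same-numbered libraries at 0.070, 0.151 and -0.010 across genes. With the GC and length trend removed these values were 0.050, 0.107 and 0.025. Eluates 1 and 2 correlated best with the pellet of their own number, and eluate 3 with pellet 1 (0.111). These values do not settle whether the numbers mark pairs. The labels do not say so, and the main fit therefore left the number out. With the replicate block 7076 genes were called, with the same 4 members and Ier3 (0.52; adjusted p = 0.0495), and the SE of Egr1 was 0.066 in place of 0.38. Depth limits Ier5, Fos and Ier3, which had 13 to 121 counts a library.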

Other observations

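Egr1 was 1 of 6 genes, of 13231 tested, for which the replicate number itself passed the test when it was a term beside the purification step (edgeR's quasi-likelihood test; adjusted p = 0.000282; 912 genes had an unadjusted p under 0.05). This test, and the genes named with it, were chosen after the data were seen. No other member passed it, and Ier2 came nearest (unadjusted p = 0.00409; adjusted p = 0.594). Of the 6 genes Egr1 had the highest level. The others were Lpin1, which encodes a phosphatidate phosphatase, Pagr1a, 4933427D14Rik, Gm12481 and Gm14419. Lpin1 was at 12.8 and 11.1 CPM in pellet 3 and eluate 3 and at 3.61 to 5.18 CPM in the other 4 libraries, so its high libraries are not those of Egr1. 4933427D14Rik and Gm14419 were listed at 0 in both libraries numbered 1 and at 2.67 to 8.20 CPM in the rest, and Pagr1a was at 0.304 and 0.273 CPM in both libraries numbered 2 and at 3.14 to 12.01 CPM in the rest.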
